A study of Pseudotaxus chienii with 9 samples.

Results

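Of 26827 genes measured in leaves of the yew relative Pseudotaxus chienii, 88 stood low in each of the 6 libraries treated with methyl jasmonate (MeJA). They were chosen by level alone. The lowest of the 3 CK values had to be at least 5 FPKM (fragments, normalised by the authors for gene length and sequencing depth), and the highest treated value had to be at most 50% of that lowest CK value. Of 10777 genes with a lowest CK value of at least 5 FPKM, 90 met this rule, or 0.835%, and 2 of those were among 3 genes left out by name. Because CK and treated values chose these genes, their difference from CK is given as a description and no test of it is read as support. The opposite rule, with treated libraries high and CK low, held for 520 of 9224 genes with a lowest treated value of at least 5 FPKM, or 5.64%.

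Jasmonates are lipid-derived plant hormones that rise after wounding or insect attack. Their receptor removes JAZ repressor proteins, which frees MYC transcription factors to switch on defence genes, and in yews taxane formation is among the outputs. Jasmonate treatment is also known in flowering plants to hold back growth and to lower transcripts of photosynthesis. The genes described here are those low in the MeJA libraries against CK, for which no mock treatment or sampling time is given.

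Polyadenylated leaf RNA was sequenced in 9 libraries in 3 groups of 3, which were MeJA for 2 days, MeJA for 1 day, and CK. The labels name no genotype, plant age, MeJA dose or mock treatment and give no sampling time for CK, which is the one group without MeJA. Whether the 3 libraries of a group are 3 plants is not said there, so the p-values cover only the library spread, part of which may be technical. Both MeJA groups are set against the same 3 CK libraries.

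Totals were 48893949 to 58703021 counts per library, with 23194 to 24252 of the 26827 genes above 0. Library 2 of day 2 and library 2 of day 1 stood apart from the other 4 treated libraries. Of 19 leaf mesophyll markers (light-harvesting and Rubisco small subunit genes by description), 14 averaged at least 1 FPKM and none was at 0 throughout. Their summed level was 4380, 734 and 4030 FPKM in libraries 1 to 3 of day 2, 7470, 852 and 4200 FPKM at day 1, and 9810, 12600 and 12300 FPKM in CK. These markers were abundant in CK, as a leaf label would have it, and lowest in the libraries numbered 2. A wider list of 258 tested light-harvesting and photosynthesis descriptions had a median log2 fold change of 1.06 at day 2 and 1.69 at day 1. The median of all genes was 0.03 on both days. In this list 0 were called lower and 1 higher at day 2 (edgeR), against 0.858% and 4.09% of all genes. At day 1, 0 were called, against 1.00% lower and 4.34% higher of all genes. Only 25 genes of the list had a lowest CK value of at least 5 FPKM, so its medians rest mostly on genes under that level. Of those 25, 21 had all treated libraries below all CK libraries, where 22.7% of all genes at that level did. Summed markers of wood and vessel (51 genes) were 298 to 454 FPKM in the treated libraries and 182 to 198 FPKM in CK. Those of reproductive and seed tissue (61 genes) were 1270 to 3310 FPKM in the treated libraries and 624 to 782 FPKM in CK. Guard cell markers (6 genes) spanned 20.2 to 35.8 FPKM over all 9 libraries. None of the 88 genes is in these lists, and the part of these shifts in the levels below was not tested. In whole leaves, fewer cells of a type and less RNA per cell cannot be told apart.

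The 88 genes ranged from 5.18 to 1010 FPKM in mean CK level, with a median of 32.4 FPKM, and 11 of them reached 100 FPKM. Their mean over the 6 treated libraries was 1.48% to 35.8% of the CK mean, with a median of 18.3%. Together they gave 1320, 612 and 1680 FPKM in libraries 1 to 3 of day 2, 1680, 963 and 1160 FPKM at day 1, and 5500, 6780 and 6420 FPKM in CK. The highest treated value was at most 20% of the lowest CK value in 3 genes and at most 40% in 38. At the edge of the rule, a CCG-binding protein (PchiChr8G238320) was inside with 49.8%, and a type I 1-deoxy-D-xylulose 5-phosphate synthase gene (PchiChr3G096160) was just outside with 48.1 FPKM against a lowest CK value of 96.2 FPKM. The TCP20 gene (PchiChr7G199110) was inside the floor with a lowest CK value of 5.1 FPKM, while a cytochrome P450 90D2 gene (PchiChr10G295310) was outside with 4.88 FPKM.

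**Figure D1:**
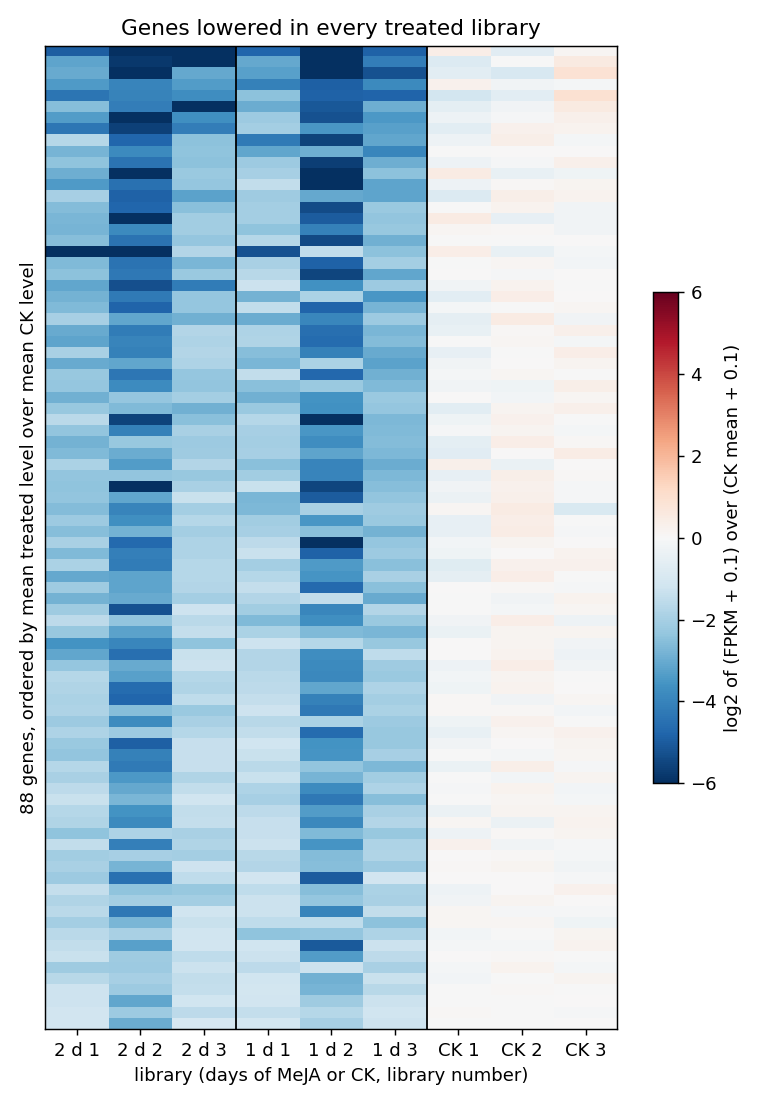
Level of each of the 88 genes (rows, ordered by treated over CK mean) in each of the 9 libraries (columns), as log2 of FPKM plus 0.1 over the CK mean plus 0.1, with the colour scale ending at -6 and 6. The rule makes all treated columns blue, and library 2 of day 2 and library 2 of day 1 carry the deepest colour in most rows.

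In the edgeR quasi-likelihood fit of all 9 libraries (adjusted p under 0.05 over 22384 genes), 33 of the 88 genes were called lower at day 2, or 37.5%, against 0.858% of all genes tested. At day 1, 30 of the 88 were called lower, or 34.1%, against 1.00% of all genes tested. The rule used these contrasts, so nothing is read from the shares. The log2 fold changes of the 88 had a median of -2.33 at day 2 (range -6.67 to -1.44) and of -2.29 at day 1 (range -5.48 to -1.31), where the median of all genes was 0.03 on both days. The calls rest on few libraries. At day 2 they numbered 2, 8 and 4 without CK libraries 1, 2 and 3, and 15, 7 and 18 without day 2 libraries 1, 2 and 3, and 64 without day 1 library 2. At day 1 they numbered 6, 7 and 4 without CK libraries 1, 2 and 3, and 26, 28 and 11 without day 1 libraries 1, 2 and 3. Leaving out both treated libraries numbered 2 gave 76 calls at day 2 and 68 at day 1. The set itself would hold 202 genes without day 1 library 1, 164 without CK library 1 and 100 without both treated libraries numbered 2. Leaving out a library can only loosen the rule, so all 88 are in each of these by construction. When FPKM was rescaled between libraries with TMM factors, 60 of the 88 still met the rule, and the named genes that did not are pointed out with their values (the CCG-binding protein at the edge was among them).

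Of the 88 genes, 37 have a description that names a protein, 41 have one that names no function and 10 have none. A gene ontology (GO) term is given for 67 and a KEGG entry for 23. These names come from matches to other species, and the roles below are known from those species, mostly Arabidopsis, not from Pseudotaxus. In all, 63 genes were placed in groups, and some of them are counted in their group without being named. Fold changes are log2 values with their standard error (SE) from the edgeR fit.

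The highest CK level belonged to an auxin-repressed 12.5 kDa protein gene (PchiChr10G287090; chromosome 10, block 500000001 as the table names it, bases 342109826 to 342111224, minus strand). Such small proteins were first known from genes lowered by auxin or abundant in dormant tissue, and their molecular role is not settled. It had 244, 153 and 403 FPKM in libraries 1 to 3 of day 2, 357, 353 and 185 FPKM at day 1, and 1080, 1100 and 845 FPKM in CK. Even the highest treated library, library 3 of day 2, lay well under the lowest CK library, and day 2 and day 1 overlapped. A related dormancy/auxin associated-like gene (PchiChr3G076750; chromosome 3, block 1, bases 366177601 to 366179615, minus strand) had 85, 32.4 and 123 FPKM at day 2, 84.7, 164 and 53.1 FPKM at day 1, and 391, 810 and 624 FPKM in CK. Its CK libraries differed among themselves more than those of the first gene, and it did not meet the rule after TMM rescaling. The fold changes of the first gene were -1.83 (SE 0.42) at day 2 and -1.60 (SE 0.42) at day 1, and those of the second were -2.85 (SE 0.61) and -2.42 (SE 0.60). Both genes in the table with such a description are in the set. In neither were the libraries numbered 2 low on both days: their mean was 85.2% of the other 4 treated libraries for the first gene and 114% for the second.

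Ubiquitin ligases mark proteins for breakdown, and 5 of the 88 genes are annotated as such or as parts of such complexes. MIEL1 (PchiChr4G102480; chromosome 4, block 1, bases 205199412 to 205204770, minus strand) is in Arabidopsis a RING-type ligase that marks MYB factors of pathogen defence and of wax synthesis. Its level was 2.26, 0.78 and 2.19 FPKM in libraries 1 to 3 of day 2, 2.01, 2.44 and 1.81 FPKM at day 1, and 10.3, 9.85 and 15.3 FPKM in CK. The treated libraries lay close together, apart from library 2 of day 2, which was lowest. Fold changes were -2.68 (SE 0.40) at day 2 and -2.35 (SE 0.40) at day 1, and the gene met the rule after TMM rescaling too. MIEL1 names 2 further genes that are outside the set. PchiChr1G006440 had 21, 15.5 and 20.9 FPKM at day 2, 18.5, 15 and 23.2 FPKM at day 1, and 29.4, 26.1 and 17.1 FPKM in CK. PchiChr4G108170 had 37.3, 57.6 and 74.8 FPKM at day 2, 50.1, 73.3 and 57.6 FPKM at day 1, and 35.2, 45.6 and 36.6 FPKM in CK. Neither was called against CK (edgeR adjusted p 0.576 and 0.235 at day 2, 0.555 and 0.186 at day 1), and both overlapped with CK on at least 1 day. A U-box domain-containing protein 50 gene (PchiChr11G302500), from a family that joins a kinase domain to a ligase domain, was close to absent after treatment. It had 1.69, 0.197 and 0 FPKM at day 2, 1.82, 0 and 0.813 FPKM at day 1, and 9.05, 15.9 and 23.4 FPKM in CK. Its CK libraries alone spanned a wide range, and its SE was large (-4.63, SE 1.90, at day 2 and -4.10, SE 1.85, at day 1). An F-box gene annotated to SCF complexes (PchiChr4G120920) averaged 4.22 ± 2.69 FPKM at day 2, 2.34 ± 1.15 FPKM at day 1 and 20.8 ± 6.15 FPKM in CK (SD, n = 3 each). Of 289 tested genes outside the set whose descriptions name ubiquitin ligases or conjugating enzymes, 8 were called lower and 15 higher at day 2 (0.858% and 4.09% of all genes), and 7 lower and 12 higher at day 1 (1.00% and 4.34%). Without both treated libraries numbered 2 these counts were 21 and 21 at day 2, and 16 and 17 at day 1. Without CK library 3 they were 0 and 2 on each day.

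Signalling steps of abscisic acid, gibberellin and cytokinin were represented by 4 genes. PchiChr3G068140 carries the KEGG entry of the PYR/PYL receptors, which bind abscisic acid and then block the phosphatases that hold its pathway off. It had 5.37, 4.43 and 4.54 FPKM in libraries 1 to 3 of day 2, 7.71, 3.74 and 4.83 FPKM at day 1, and 16.1, 21.4 and 18.8 FPKM in CK. All 3 day 2 libraries were close together and library 1 of day 1 was highest among the treated. Its fold changes of -1.86 (SE 0.27) at day 2 and -1.66 (SE 0.27) at day 1 were among those with small errors, although it did not meet the rule after TMM rescaling. A gibberellin F-box gene with the KEGG entry of GID2 (PchiChr8G245620), the part of the ligase that removes DELLA growth repressors, had 4.05, 3.28 and 5.71 FPKM at day 2, 5.95, 4.17 and 3.23 FPKM at day 1, and 17, 32.5 and 22.6 FPKM in CK. PchiChr7G192320, described as SCL11 and given the KEGG entry of the DELLA proteins, is of the GRAS family of regulators. It had 0.709, 0.657 and 1.71 FPKM at day 2, 0.886, 1.64 and 0.603 FPKM at day 1, and 5.54, 6.55 and 7.27 FPKM in CK. A type A response regulator gene (PchiChr12G332590), of the class that damps cytokinin signalling, had 2.83, 1.3 and 2.08 FPKM at day 2, 2.3, 1.86 and 2.68 FPKM at day 1, and 6.66, 6.18 and 6.08 FPKM in CK. In none of these 4 genes did the days separate. The libraries numbered 2 had a median of 75.7% of the other treated libraries over the 4 genes. Other genes with the same KEGG entries were mostly not called: 0 of 4 tested for the PYR/PYL entry and 0 of 8 for the response regulator entry on either day. For the DELLA entry 37 were tested, with 1 lower and 2 higher at day 2 and 2 lower and 4 higher at day 1. For the GID2 entry 16 were tested, with 4 called higher at day 2, 2 higher at day 1 and 0 lower on either day. In the KEGG pathway of plant hormone signal transduction, 359 genes outside the set were tested, with 5 lower and 41 higher at day 2 and 3 lower and 41 higher at day 1 (0.858% lower and 4.09% higher of all genes at day 2, 1.00% and 4.34% at day 1). The higher calls rest on the CK libraries too, with 0 at day 2 and 3 at day 1 without CK library 1. Without both treated libraries numbered 2, 18 were lower and 68 higher at day 2, and 12 lower and 51 higher at day 1.

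Among 8 genes for transcription regulators, the highest CK level belonged to PchiChr4G097070, known only by its GO terms for DNA binding. It had 14.1, 14 and 25.6 FPKM in libraries 1 to 3 of day 2, 21.1, 26.1 and 16.1 FPKM at day 1, and 57.8, 73.4 and 57.7 FPKM in CK, and it did not meet the rule after TMM rescaling. PchiChr5G157370 has the KEGG entry of CONSTANS, a zinc finger factor that links day length to flowering in Arabidopsis. It had 8.74, 2.02 and 8.43 FPKM at day 2, 15.2, 1.55 and 5.76 FPKM at day 1, and 39.6, 47.3 and 42.2 FPKM in CK, with both libraries numbered 2 lowest. OFP1-like (PchiChr3G083260), of a family of repressors that limit cell elongation in Arabidopsis, averaged 1.10 ± 0.690 FPKM at day 2, 0.965 ± 0.858 FPKM at day 1 and 8.60 ± 1.84 FPKM in CK. A WRKY 45 gene (PchiChr12G332980), of a family better known for rising in defence, had 1.87, 0.582 and 2.59 FPKM at day 2, 1.97, 0.693 and 1.8 FPKM at day 1, and 6.18, 11.5 and 8.58 FPKM in CK. TCP20 (PchiChr7G199110), of a family that regulates cell growth and division in leaves, was the weakest member by treated share: 1.79 ± 1.05 FPKM at day 2, 1.92 ± 0.611 FPKM at day 1 and 5.18 ± 0.145 FPKM in CK, or 35.8% of CK over the treated libraries. After TMM rescaling it did not meet the rule. Also in this group are a CCCH zinc finger gene (PchiChr1G034560) and an AP2/B3-like gene (PchiChr12G329690), at 19.0% and 16.2% of CK. Of 418 tested genes outside the set with transcription factor descriptions, 1 was called lower on each day (0.858% of all genes at day 2, 1.00% at day 1), with 37 called higher at day 2 and 43 at day 1 (4.09% and 4.34% of all genes). Without both treated libraries numbered 2 these were 9 lower and 63 higher at day 2, and 8 lower and 59 higher at day 1, and without CK library 1 they were 0 lower on each day, with 1 and 5 higher.

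**Figure D2:**
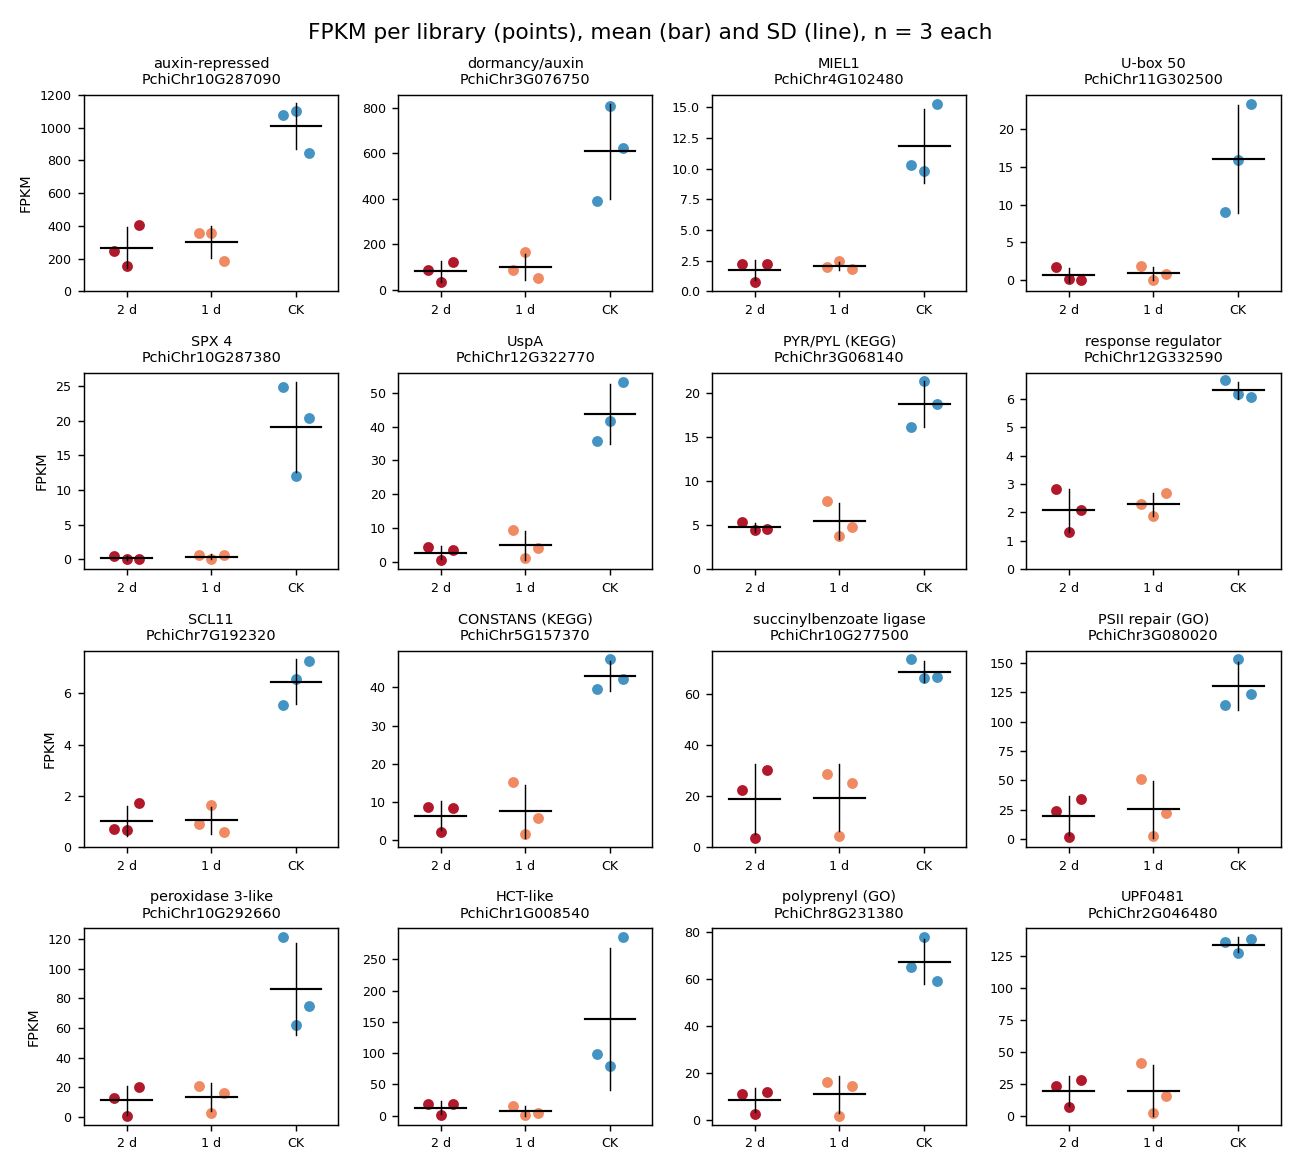
FPKM of 16 of the 88 genes in each library (points), with the mean (horizontal line) and SD (vertical line) of the 3 libraries at day 2, day 1 and CK, each panel on its own linear axis. The treated points lie below the CK points by the rule, and the day 2 and day 1 points overlap in these panels.

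A group for plastid quinones, photosystem repair and chlorophyll holds 7 genes. It counts the CCG-binding protein gene PchiChr8G238320 and PchiChr11G316480, described as unknown. Their descriptions name no such role, and neither has a KEGG entry. The GO term for chloroplast is given for 7.95% of the 88 genes, against 13.9% of genes with a lowest CK value of at least 5 FPKM. PchiChr10G277500 (chromosome 10, block 1, bases 67441033 to 67449263, minus strand) encodes 2-succinylbenzoate-CoA ligase, an enzyme on the way to phylloquinone, the quinone electron carrier of photosystem I. It had 22.1, 3.45 and 30.3 FPKM in libraries 1 to 3 of day 2, 28.5, 4.35 and 25 FPKM at day 1, and 73.4, 66.1 and 66.5 FPKM in CK. Libraries numbered 2 were several times lower than their group, while CK was tight. PchiChr1G010520 has the enzyme number of a methyltransferase in plastoquinone and tocopherol formation, and had 7.36, 2.71 and 8.16 FPKM at day 2, 4.7, 0.855 and 3.08 FPKM at day 1, and 18.6, 20 and 17.5 FPKM in CK. PchiChr3G080020, annotated to photosystem II repair in the thylakoid lumen, had 24.2, 1.35 and 33.9 FPKM at day 2, 51.2, 2.72 and 21.9 FPKM at day 1, and 114, 153 and 124 FPKM in CK. It was the most abundant of the 7 in CK, and it did not meet the rule after TMM rescaling. PchiChr7G207590, with GO terms for tetrapyrrole binding and chlorophyll synthesis, averaged 19.7 ± 15.1 FPKM at day 2, 22.9 ± 14.8 FPKM at day 1 and 93.5 ± 7.14 FPKM in CK. Chlororespiratory reduction 41 (PchiChr5G138180), which in Arabidopsis helps to assemble the plastid NDH complex, had 2.22, 1.27 and 5.79 FPKM at day 2, 5.91, 0.761 and 3.31 FPKM at day 1, and 20.8, 22.5 and 19.4 FPKM in CK. PchiChr11G316480, described as unknown, had 21, 7.02 and 24.8 FPKM at day 2 and 30, 26 and 21.2 FPKM at day 1. In CK it had 80.1, 114 and 96.3 FPKM, and its libraries numbered 2 averaged 68% of the other treated libraries. In all 7 the lowest treated library was a library 2. This held for 94.3% of the 88 genes and for 66.7% of other genes with a lowest CK value of at least 5 FPKM. The mean of the libraries numbered 2 had a median of 23.6% of the other treated libraries, against 33.3% over the 88. Over the same libraries the summed mesophyll markers were 734 FPKM at day 2 and 852 FPKM at day 1, and the part of that shift was not tested. Of 42 tested genes outside the set in the KEGG pathway of ubiquinone and other terpenoid quinones, 0 were called on either day by edgeR.

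Organelle RNA processing and translation gave 4 genes. Pentatricopeptide repeat (PPR) proteins bind, edit and stabilise transcripts of plastids and mitochondria, and 3 of 486 PPR genes in the table are in the set. The plastid-type gene PchiChr2G056250 had 3.76, 2.96 and 4.31 FPKM in libraries 1 to 3 of day 2, 5.15, 1.56 and 4.75 FPKM at day 1, and 10.9, 11.9 and 13.4 FPKM in CK. PchiChr8G247330 had 1.87, 1.1 and 1.43 FPKM at day 2, 2.87, 0.267 and 1.82 FPKM at day 1, and 7.43, 7.34 and 6.35 FPKM in CK. The third, PchiChr3G092210, averaged 2.30 ± 0.731 FPKM at day 2, 2.07 ± 1.15 FPKM at day 1 and 6.95 ± 0.334 FPKM in CK, and it and PchiChr2G056250 did not meet the rule after TMM rescaling. An organellar isoleucine-tRNA ligase gene (PchiChr4G114230), which charges tRNA for plastid and mitochondrial translation, had 7.86, 4.52 and 6.94 FPKM at day 2, 8.25, 1.93 and 6.83 FPKM at day 1, and 20.4, 21 and 19.7 FPKM in CK. CK libraries agreed closely in these 4 genes, and library 2 of day 1 was lowest in each. Of 466 tested PPR genes outside the set, 5 were called lower and 0 higher at day 2 (edgeR, adjusted p under 0.05, against 0.858% and 4.09% of all genes), and 17 lower and 0 higher at day 1 (1.00% and 4.34%). No PPR gene was called lower when any 1 of the 3 CK libraries was left out, nor at day 2 when any 1 of its own libraries was, and without both treated libraries numbered 2 there were 37 lower at day 2 and 22 at day 1. Their median fold change was -0.52 at day 2 and -0.80 at day 1, against 0.03 for all genes. Of the 58 with a lowest CK value of at least 5 FPKM, 42 had all treated libraries below all CK libraries, where 22.7% of all genes at that level did.

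Peroxidases, phenolic enzymes and cuticle enzymes gave 7 genes, and in these the libraries numbered 2 were farthest from the rest, with a median of 9.81% of the other treated libraries. A peroxidase 3-like gene (PchiChr10G292660), a class III peroxidase annotated to the cell wall, where such enzymes oxidise phenolics, had 12.6, 0.715 and 20.3 FPKM in libraries 1 to 3 of day 2, 21, 2.58 and 16.4 FPKM at day 1, and 121, 62.1 and 74.9 FPKM in CK. A second peroxidase 3-like gene (PchiChr3G095760) had 4.21, 0.143 and 7.06 FPKM at day 2, 8.22, 0 and 5.99 FPKM at day 1, and 46.8, 24.5 and 27.6 FPKM in CK. Both showed the same order within each group, with library 2 close to 0 after treatment and library 1 highest in CK. Of 2 other tested peroxidase 3 genes, 0 were called on either day by edgeR. A list of redox descriptions, which includes peroxidases, had 111 tested genes outside the set. Of these, 0 were called lower and 11 higher on each day (0.858% and 4.09% of all genes at day 2, 1.00% and 4.34% at day 1). A shikimate O-hydroxycinnamoyltransferase-like gene (PchiChr1G008540), named for a step to lignin precursors, had 18.8, 0.344 and 18.1 FPKM at day 2, 15.9, 1.41 and 4.01 FPKM at day 1, and 98.7, 79.5 and 285 FPKM in CK. CK library 3 was far above the other CK libraries there, and the SE of its fold changes exceeded 1. PchiChr5G133230, with the KEGG entry of 3-ketoacyl-CoA synthase, which extends fatty acids for wax, was unlike these in being even at day 2. It had 7.81, 7.97 and 8.51 FPKM at day 2, 9.75, 2.54 and 6.29 FPKM at day 1, and 29, 52 and 43 FPKM in CK. A gene with the KEGG entry of a feruloyl transferase of suberin (PchiChr3G084690) and the UDP-glycosyltransferase UGT8 gene (PchiChr10G277540) stood at 25.6% and 21.1% of CK, and neither met the rule after TMM rescaling. The CYP750C17 cytochrome P450 gene PchiChr1G001420 had 7.19, 2.5 and 7.92 FPKM at day 2, 11.2, 3.93 and 6.48 FPKM at day 1, and 27.6, 25 and 31.3 FPKM in CK. Its name is shared by 26 other genes, whose reads may not be separable from its own. Of 19 tested, 1 was called lower at day 2 and 0 at day 1 (0.858% and 1.00% of all genes). The 1 called is among the genes left out by name. The 19 had median fold changes of -1.35 at day 2 and -1.3 at day 1, against 0.03 for all genes. Of 9 with a lowest CK value of at least 5 FPKM, 6 had all treated libraries below all CK libraries, where 22.7% of all genes at that level did. In the KEGG pathway of phenylpropanoid biosynthesis, 214 genes outside the set were tested, with 2 lower and 12 higher at day 2 (0.858% and 4.09% of all genes) and 2 lower and 15 higher at day 1 (1.00% and 4.34%). Without CK library 1 the pathway had 0 lower and 3 higher on each day.

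Sterol, polyprenol, lipid and peroxisome genes numbered 8. PchiChr8G231380 and PchiChr8G231410 are both annotated to polyprenyltransferase activity and carry the KEGG entry of dehydrodolichyl diphosphate synthase. In other species such enzymes act on the way to long isoprenoid alcohols that carry sugars for protein glycosylation. The first had 11, 2.36 and 11.7 FPKM in libraries 1 to 3 of day 2, 16.2, 1.54 and 14.4 FPKM at day 1, and 65.1, 77.7 and 58.9 FPKM in CK. The second had 7.04, 2 and 6.56 FPKM at day 2, 11.5, 1.47 and 10.6 FPKM at day 1, and 44.3, 49 and 40.2 FPKM in CK. They lie on chromosome 8, 1789.6 kb apart with 1 listed gene between them, and in both the libraries numbered 2 were lowest on each day. Whether they share reads was not tested. Of 10 other tested genes with their KEGG entry, 0 were called on either day by edgeR. Of 71 tested genes outside the set in the terpenoid backbone pathway, 0 were lower on either day, with 5 higher at day 2 and 1 at day 1 (4.09% and 4.34% higher of all genes). A delta24-sterol reductase gene (PchiChr11G312260), from the sterol and brassinosteroid route, had 7.73, 1.09 and 8.33 FPKM at day 2, 10.2, 0.0565 and 5.91 FPKM at day 1, and 26.7, 33.8 and 30.3 FPKM in CK. The most abundant was PchiChr11G316270, with GO terms for lipid transport, at 79.9, 36.5 and 43.4 FPKM at day 2, 40.8, 21.4 and 71.5 FPKM at day 1, and 225, 458 and 282 FPKM in CK. Next was PchiChr6G182500, with GO terms for lipid droplets and translation elongation, at 47.9, 37.5 and 64.3 FPKM at day 2, 26.7, 28.8 and 40.7 FPKM at day 1, and 130, 143 and 163 FPKM in CK. Here library 2 of day 1 was not the lowest, and the gene did not meet the rule after TMM rescaling. The peroxisomal membrane protein 11B gene (PchiChr11G318270), of a family that divides peroxisomes, averaged 8.07 ± 6.07 FPKM at day 2, 8.36 ± 5.91 FPKM at day 1 and 37.1 ± 4.20 FPKM in CK. A phospholipase A2 gene by GO term (PchiChr6G181620) averaged 11.0 ± 6.63 FPKM at day 2, 10.6 ± 5.17 FPKM at day 1 and 64.1 ± 6.12 FPKM in CK.

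The gene lowest relative to CK was SPX domain-containing protein 4 (PchiChr10G287380; chromosome 10, block 500000001, bases 355620239 to 355621664, plus strand). SPX proteins sense inositol pyrophosphates and so tie the phosphate state of the cell to its phosphate starvation genes. It had 0.52, 0 and 0 FPKM in libraries 1 to 3 of day 2, 0.611, 0 and 0.562 FPKM at day 1, and 24.9, 12 and 20.4 FPKM in CK. The treated mean was 1.48% of CK, with fold changes of -6.67 (SE 1.82) at day 2 and -5.48 (SE 1.70) at day 1, whose size depends on the prior count where libraries are at 0. Of 3 other SPX genes, SPX 5 (PchiChr2G064540) was called lower with an edgeR adjusted p of 0.0276 at day 2 and 0.0318 at day 1, from a CK level under 0.5 FPKM. SPX 1 (PchiChr7G192880) had 51.9, 40 and 39.7 FPKM at day 2, 66.9, 55.4 and 72.4 FPKM at day 1, and 66.7, 76.9 and 90.1 FPKM in CK, and was not called (adjusted p 0.0755 at day 2 and 0.678 at day 1). SPX 3-like (PchiChr6G167670) was not called either (adjusted p 0.259 and 0.644). A calcium-binding gene with the KEGG entry of calmodulin-like proteins (PchiChr10G291310) had 1.15, 0.477 and 2.54 FPKM at day 2, 4.51, 0.0487 and 1.37 FPKM at day 1, and 10.5, 13.7 and 14.5 FPKM in CK. Of 54 other tested genes with that entry, 1 was lower and 10 higher at day 2 (0.858% and 4.09% of all genes), and 0 lower and 12 higher at day 1 (1.00% and 4.34%). PchiChr1G021640, annotated to mitochondrial transport, had 6.32, 2.02 and 0.212 FPKM at day 2, 4.62, 0.994 and 4.77 FPKM at day 1, and 24.6, 32.5 and 55.2 FPKM in CK. A metal ion binding gene (PchiChr11G312590) averaged 9.56 ± 5.61 FPKM at day 2, 9.25 ± 7.28 FPKM at day 1 and 31.8 ± 4.24 FPKM in CK, and did not meet the rule after TMM rescaling.

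Universal stress proteins, small nucleotide-binding proteins of uncertain role in plants, gave 3 genes. UspA (PchiChr12G322770), which carries a GO term for ubiquitin transfer, had 4.18, 0.416 and 3.33 FPKM in libraries 1 to 3 of day 2, 9.4, 1.07 and 3.94 FPKM at day 1, and 35.8, 41.7 and 53.3 FPKM in CK. PchiChr3G094960, annotated to stress response, was among the most abundant of the 88, with 131, 35.6 and 154 FPKM at day 2, 145, 42 and 112 FPKM at day 1, and 331, 473 and 473 FPKM in CK. A universal stress protein A-like gene (PchiChr12G323200) had 3.43, 1.31 and 5.22 FPKM at day 2, 3.22, 5.49 and 4.78 FPKM at day 1, and 23.4, 30.2 and 11.3 FPKM in CK. Neither of the last pair met the rule after TMM rescaling. Of 15 other tested genes with such a description, 0 were called on either day by edgeR. Among 3 defence and receptor genes, a thaumatin-like gene (PchiChr3G084120), of a family of antifungal proteins, was uneven across libraries. It had 1.31, 0.856 and 32.3 FPKM at day 2, 2.81, 38.5 and 19.9 FPKM at day 1, and 143, 81.3 and 102 FPKM in CK. Library 2 was lowest at day 2 and highest at day 1, and the gene did not meet the rule after TMM rescaling. Of 20 other tested thaumatin-like genes, 0 were called on either day by edgeR. A receptor-like kinase gene named for a leaf rust resistance locus (PchiChr4G101190) had 4, 1.88 and 5.13 FPKM at day 2, 6.48, 0.603 and 3.01 FPKM at day 1, and 17.8, 18.6 and 16.7 FPKM in CK.

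Of the other genes with a name or a GO term, a formin-like 20 gene (PchiChr10G278950), of a family that nucleates actin filaments, had 24, 35.6 and 32.9 FPKM in libraries 1 to 3 of day 2, 50.1, 20.3 and 26.6 FPKM at day 1, and 106, 135 and 145 FPKM in CK. It did not meet the rule after TMM rescaling. PchiChr6G188450, with a GO term for tRNA splicing, had 79.8, 62.5 and 52.5 FPKM at day 2, 82.3, 31.1 and 77 FPKM at day 1, and 253, 439 and 475 FPKM in CK. A CASP-like 1U1 gene (PchiChr1G028440), of a family of small membrane proteins, averaged 1.57 ± 1.29 FPKM at day 2, 0.505 ± 0.459 FPKM at day 1 and 9.54 ± 2.26 FPKM in CK. PchiChr2G046480 and PchiChr2G046490, UPF0481 proteins of unknown function, are next to each other on chromosome 2 with 16.2 kb between them. The first had 23.9, 6.82 and 28.4 FPKM at day 2, 41.7, 2.81 and 15.6 FPKM at day 1, and 136, 127 and 138 FPKM in CK. The second had 14.9, 3.92 and 17.2 FPKM at day 2, 26.3, 1.97 and 11.9 FPKM at day 1, and 86, 86.8 and 88.9 FPKM in CK. In both, library 2 was lowest on each day and library 1 of day 1 was the highest treated library. How alike their sequences are, and whether they share reads, was not tested. Of 23 other tested UPF0481 genes, 0 were lower on either day, with 4 higher at day 2 and 3 at day 1 (4.09% and 4.34% higher of all genes). The hypothetical protein gene PchiChr12G330990 had 8.93, 6.16 and 9.2 FPKM at day 2, 5.61, 3.15 and 6.8 FPKM at day 1, and 115, 84.5 and 89 FPKM in CK. With fold changes of -3.46 (SE 0.28) at day 2 and -4.09 (SE 0.28) at day 1, it combined a deep low with a small error. An uncharacterized gene (PchiChr1G005460) averaged 2.19 ± 1.01 FPKM at day 2, 1.69 ± 0.563 FPKM at day 1 and 17.0 ± 0.315 FPKM in CK. For 19 of the 88 there is neither an informative description nor a GO term.

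The depth of the low level differed between treated libraries. The median of the 88 genes was 20.3%, 6.43% and 26.3% of the CK mean in libraries 1 to 3 of day 2, and 28.6%, 7.04% and 19.8% at day 1. Other genes with a lowest CK value of at least 5 FPKM had medians of 92.9%, 75.3% and 91.8% at day 2 and 88.7%, 80.9% and 94.4% at day 1. In 83 of the 88 genes, or 94.3%, the lowest treated library was a library 2 of either day, against 66.7% of 10687 other genes. Both libraries numbered 2 lay below the other 4 treated libraries in 57 of the 88 genes, or 64.8%, against 34.1% of the others, and above them in 0, against 8.36%. The mean of those libraries had a median of 33.3% of the other treated libraries over the 88 genes, 86.2% over the other genes, and 60.8% over the 2353 other genes with all treated libraries below CK. These shares are descriptions, since the rule caps the treated values. Without the libraries numbered 2, the treated mean of the 88 genes had a median of 23.7% of CK (range 2.22% to 44.9%), and in those libraries alone it was 7.37%. In 5 genes the libraries numbered 2 were above the others on average, among them the thaumatin-like gene at 140%, SCL11 at 118% and the dormancy-associated gene at 114%. Whether the shift in mesophyll markers in the same libraries has a part in this pattern was not tested.

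**Figure D3:**
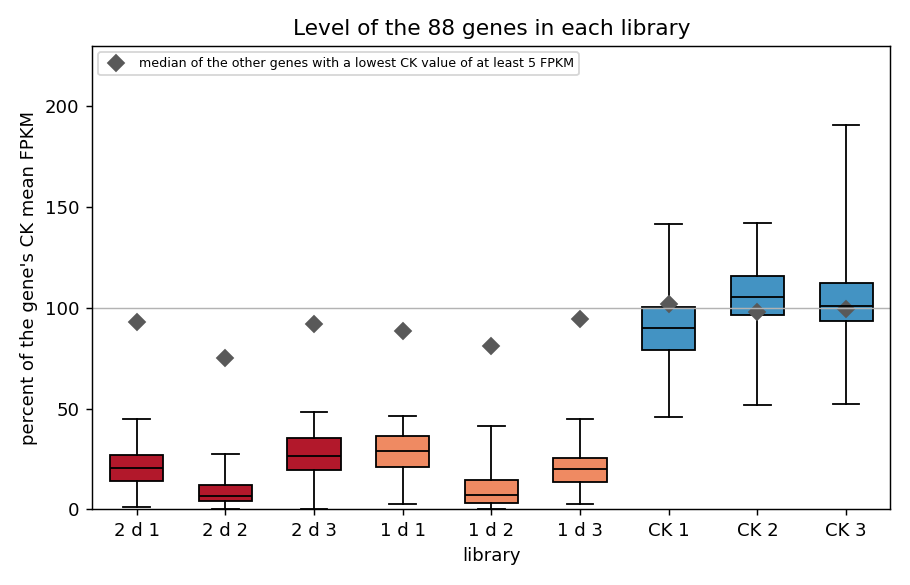
Boxes give the level of the 88 genes in each library as a percent of the gene's CK mean FPKM (box, quartiles; line, median; whiskers, lowest and highest gene), and diamonds give the median of the other genes with a lowest CK value of at least 5 FPKM. The boxes of library 2 of day 2 and library 2 of day 1 lie lowest, with medians of 6.43% and 7.04%.

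Whether the low level deepened or eased between the days is the comparison that the rule did not choose on, although its ceiling bounds any increase. Between day 2 and day 1, 0 of the 88 genes were called (edgeR quasi-likelihood test, adjusted p under 0.05), as were 0 of all 22384 genes tested, or 0%. DESeq2 called 72 genes and 0 of the 88. At an unadjusted p under 0.05, 3 of the 88 were lower at day 2 and 3 higher, where 949 of all genes, or 4.24%, passed in either direction. The median fold change of the 88, day 2 over day 1, was -0.08 (range -1.91 to 1.59), against -0.03 for the other genes. The median SE of these fold changes was 0.57, against 0.41 for the other genes, which limits what a single gene can show. Library values of the 2 days overlapped in all but 2 of the 88 genes, or all but 2.27%, against a non-overlapping share of 6.33% among other genes at that CK level. The lowest unadjusted p was that of PchiChr3G077610, which has no description. It had 2.6, 1.02 and 2.97 FPKM at day 2, 12.9, 4.72 and 5.63 FPKM at day 1, and 35.2, 64.6 and 62.7 FPKM in CK. The day 2 libraries lay below the day 1 libraries without overlap, with a fold change of -1.86 (SE 0.50, edgeR unadjusted p 0.00552, adjusted p 0.954). PchiChr11G316670, described as unknown, had 1.92, 1.5 and 4.44 FPKM at day 2, 9.93, 7.38 and 4.81 FPKM at day 1, and 24.6, 26.8 and 20.8 FPKM in CK, again without overlap between the days, with a fold change of -1.53 (SE 0.45, edgeR adjusted p 0.954). PchiChr5G126120, also without a description, had 8.12, 1.73 and 3.73 FPKM at day 2, 28.5, 5.69 and 15.4 FPKM at day 1, and 61.3, 81.4 and 69.5 FPKM in CK. Its days overlapped through library 2 of day 1, and its fold change was -1.91 (SE 0.63, edgeR adjusted p 0.954). Neither of these last genes met the rule after TMM rescaling. The lipid droplet gene PchiChr6G182500, listed above, was higher in estimate at day 2, by 0.62 (SE 0.24, edgeR adjusted p 0.954).

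**Figure D4:**
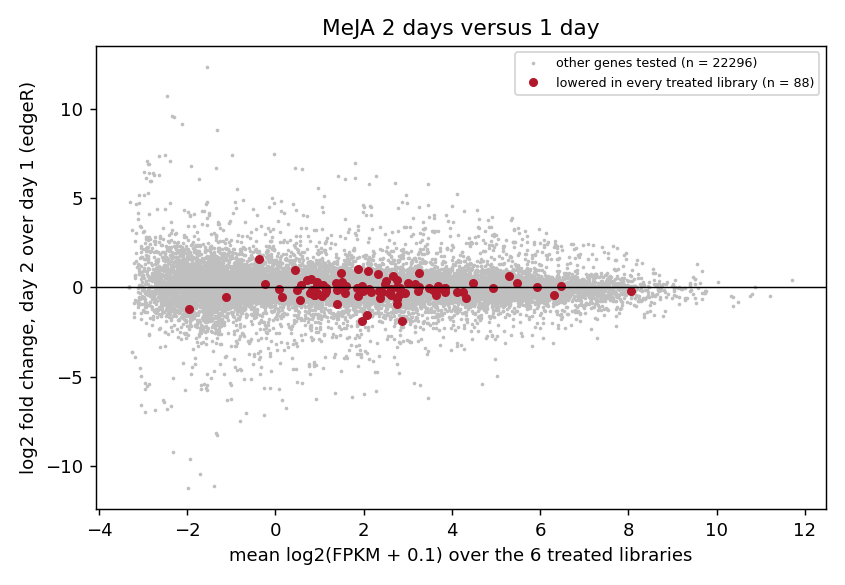
Fold change of day 2 over day 1 (log2, edgeR) against the mean log2(FPKM + 0.1) of the 6 treated libraries for the 88 genes (red) and the 22296 other genes tested (grey). The red points lie between -1.91 and 1.59, and no gene of either colour passed the adjusted threshold.

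The 88 genes lay on all 12 chromosomes, with the highest number, 16 or 18.2%, on chromosome 3, which holds 10% of genes with a lowest CK value of at least 5 FPKM. From start to end they spanned a median of 1.85 kb (quartiles 1.17 and 3.34 kb), against 18.3 kb (quartiles 3.55 and 78.6 kb) for the 10687 other genes with a lowest CK value of at least 5 FPKM. Spans under 5 kb were found in 77 of the 88, or 87.5%, and in 32.0% of the others. The contrast depends on what the genes are set beside: all 26827 genes of the table had a median of 4.35 kb, with 53.4% under 5 kb. Genes outside the set that were called lower at day 1 and had a lowest CK value of at least 5 FPKM numbered 96, with a median of 3.67 kb and 61.5% under 5 kb. The exceptions include the cyclophilin-like ligase gene PchiChr1G023860, at bases 16417135 to 16806863 of block 1000000001 on chromosome 1, which did not meet the rule after TMM rescaling, and the U-box gene at bases 170439904 to 170492112 of block 1 on chromosome 11. Of the 520 genes raised in every treated library by the opposite rule, 82.5% spanned under 5 kb, with a median of 2.05 kb. Among the 2353 other genes with all treated libraries below CK but by less than the rule asks, 32.9% did, with a median of 19.0 kb. Genes are not replicates, and these shares are given without a test.

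**Figure D5:**
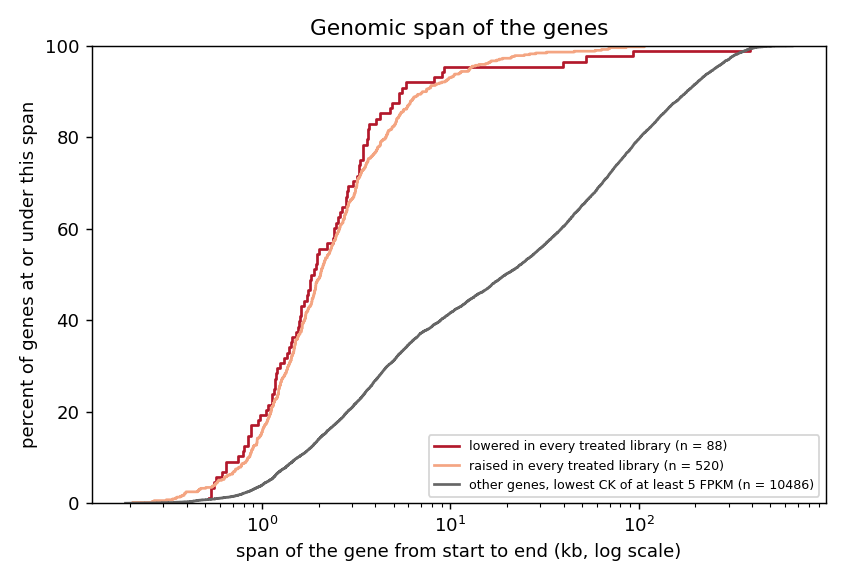
Percent of genes at or under a given span from start to end (kb, log scale) for the 88 genes lowered and the 520 genes raised in every treated library, and for 10486 other genes with a lowest CK value of at least 5 FPKM. The first curves run together and reach 87.5% and 82.5% by 5 kb, while the third lies far to their right.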

How the data were processed

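Total leaf RNA was taken with TRIzol and polyadenylated RNA was made into libraries with a VAHTS kit, per the labels' protocols. The submitters' processing notes name fastp, HISAT2 and HTSeq, and the build, annotation, strand setting and versions are not given in the sources used. The authors deposited 1 table with an estimated count and an FPKM value per gene and library. The deposited estimated counts are whole numbers that look rounded up. Set beside FPKM, each of 352 low values was higher by 0 to 1 than its proportional value (tolerance 0.05), and no further rounding was applied. The FPKM values deposited were scaled by the authors with a denominator that is not stated, and served for the rule and for all levels printed.

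Groups came from the treatment labels and library numbers from the titles. Correlations of same-numbered libraries' deviations from their group means ran from -0.123 to 0.307, so the numbers were not taken to pair libraries. The main test was the two-sided quasi-likelihood F test of edgeR 4.0.16 (R 4.3.3). One model without covariates held all 9 libraries, scaled by TMM. The filterByExpr step, at 10 counts, left 22384 genes, over which p-values were adjusted by Benjamini-Hochberg, and 0.05 was the limit. The SE is the size of the log2 fold change over the square root of F. DESeq2 1.42.0 and limma 3.58.1 served as alternatives, and the edgeR steps were tested on simulated data. Library totals set the counting precision. Lists of genes are text patterns in descriptions or KEGG entries, tested gene by gene and not as sets.

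The 88 genes, groups and lists were chosen with earlier results of these data known. Genes named in the text are MIEL1, the 12 with the highest CK mean, the 10 with the lowest ratio of highest treated to lowest CK value, up to 4 with an informative description per function group, and the 4 with the lowest p between the days. Some of the genes next to the thresholds and some of the neighbouring members are named too. Others were named after their values were seen, to show each group. Positions are as in the table, whose chromosome names end in a number that is read as a block name.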

Additional observations from a re-analysis of the deposited data

How the results depend on the processing

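With the highest treated value at most 33.3% or 66.7% of the lowest CK value in place of 50%, the set held 19 and 294 genes. Leaving out each library gave 90 to 202, and such a step can only add genes. Genes called lower at day 2 numbered 192 and became 1402 with DESeq2, 443 and 377 with limma on log2(FPKM + 1) and log2(FPKM + 0.1), 543 with only the 6 libraries compared, and 843 without both treated libraries numbered 2, a setting chosen after seeing the data. Leaving out each library gave 6 to 912. Genes called lower at day 1 numbered 224 and became 1302, 473, 357, 88 and 454 under the same settings, with 12 to 224 over left-out libraries. Of the 88 genes, calls at day 2 moved from 33 to 80 with DESeq2, 57 with limma on log2(FPKM + 1), 57 with the 6 libraries and 76 without the libraries numbered 2, with 2 to 64 over left-out libraries. At day 1 they moved from 30 to 76, 61, 18 and 68, with 4 to 39. Between the days DESeq2 called 72 genes where edgeR called 0, and edgeR called 0 without each library in turn. With the replicate block, 101 genes were called lower at day 1, 19 of them among the 88, and 135 at day 2, 22 of them among the 88. No fold change of the 88 genes against CK reversed under these settings, which the rule all but fixed in advance, so nothing is read from it. None between the days reversed in the 4 genes with the lowest p, which were picked on that contrast. Named genes outside the set were not followed across settings, and the cause of the moves was not tested. The wide spread between treated libraries limits what single genes can show.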
